A study of Drosophila melanogaster with 18 samples.

Results

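E(z) is the catalytic subunit of Polycomb repressive complex 2 (PRC2), which methylates lysine 27 of histone H3, and this mark keeps developmental genes off in cells where they are not needed. The early Drosophila melanogaster embryo is a syncytium that runs on RNA and protein loaded by the mother, and its own genome is almost wholly silent until a minor and then a major wave of zygotic transcription. RNA measured before cycle 9 is therefore mostly what the ovary supplied, so that a knockdown in the mother can be read as RNAs gained or lost from the maternal supply and as transcripts that are normally missing at that age. The comparison described here set E(z)-KD embryos against wild-type (WT) embryos before cycle 9, with 3 libraries of each, 6 of the 18 libraries of the series.

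E(z)-KD embryos came from mothers in which the matα4-GAL-VP16 driver expressed a short hairpin RNA against E(z) from the attP2 site in the female germline, so the maternal RNA was depleted while the embryo kept its own copies of the gene. WT embryos came from the TRiP control line, which has no hairpin against E(z). Embryos of both groups were laid within 1 h and staged by hand, and whole embryos gave ribosome-depleted total RNA, which the labels call nuclear RNA. Another group of the same age, CBP-KD, was made with the same driver and a hairpin against nej, the gene for the acetyltransferase CBP, and its levels are given beside those of E(z)-KD. The names of the knockdown libraries carry a cross code and those of the WT libraries do not, so the driver, the genetic background and the hairpin cannot be told apart in a comparison with WT. The libraries of a group are biological replicates, but the sources do not say whether they came from separate sets of mothers, and p-values measure the spread between these libraries.

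Libraries of WT held 16107228 to 17545601 estimated counts and those of E(z)-KD 14745390 to 17946980, in which 3 counts correspond to 0.166 to 0.202 CPM, the counts scaled to a common library size. Of the maternal RNAs that define an embryo of this age, osk, the determinant of the germ plasm, stood at 1789, 1510.4 and 1546 CPM in WT and 1466, 1455 and 1447 CPM in E(z)-KD, and bcd, the anterior determinant, at 222, 230 and 220 CPM against 210.2, 212 and 217.6 CPM. Both were not called, and 0 of 8 tested pole cell and germline genes were called. The 21 eggshell genes of follicle cells, the 3 yolk protein genes and the 10 Y-linked genes were all under 1 CPM in all 6 libraries and were not tested. Genes of the minor zygotic wave that were silent in WT, 25 in all, summed to 0.43, 0.80 and 0.056 CPM in WT and to 0.17, 9.55 and 0.39 CPM in E(z)-KD (exact permutation test, two-sided, p = 0.7, where 0.1 is the smallest p that 3 against 3 can give). E(z)-KD replicate 2 stood apart in this sum, and counts without it are given beside the main results. It did not stand apart over the 344 tested silent genes that reached 5 CPM in WT at cycle 14. These summed to 234, 253 and 292 CPM in E(z)-KD, with replicate 3 the highest. In CBP-KD they summed to 271, 270 and 414 CPM. In WT, where the choice of silent genes keeps the sum low, it was 11.5, 9.20 and 5.48 CPM. A difference in age between the groups was not tested.

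The targeted RNA was close to absent. E(z) was at 106, 97.9 and 104 CPM in WT and at 0.056, 0.27 and 0.22 CPM in E(z)-KD, and it was at 92.2, 87.3 and 96.6 CPM in CBP-KD. Only the E(z)-KD libraries were low, and the change from WT was -9.11 ± 0.31 (log2 fold change ± SE; adjusted p = 1.4e-12, edgeR quasi-likelihood test). Of the 7 tested PRC2 genes E(z) was the only one called. Su(z)12, a core subunit, was at 244, 239 and 246 CPM in WT and 217, 221 and 223 CPM in E(z)-KD, and esc, the subunit that binds the methyl mark, was at 109, 103 and 110 CPM against 106, 102 and 99.0 CPM. Pcl, Jarid2, jing and escl, accessory or duplicate subunits, changed by between -0.18 and 0.22 on the log2 scale, and the counts of escl are uncertain because they were not whole in every library. None of the 13 subunits of PRC1 and PhoRC and none of the 15 genes of the Trithorax group and H3K27 acetylation list was called. The largest absolute log2 change in those lists was 0.78 and 0.53.

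Across all genes, E(z)-KD embryos gained more RNAs than they lost. Of 8467 genes tested, 808 passed an adjusted p-value of 0.05 and an absolute log2 fold change of 1 (9.54%). Of these, 630 were higher in E(z)-KD (7.44%) and 178 were lower (2.1%). In relative level most maternal RNAs were as in WT: 93.7% of the 6720 genes with at least 1 CPM in WT lay within 2-fold. Their quartiles were -0.19 and 0.14 with a median of -0.04 on the log2 scale. Scaling to a common library size, made up mostly of these RNAs, keeps the median near no change. The values cannot show a change in the total amount of maternal RNA. Without E(z)-KD replicate 2, 619 genes were higher and 179 were lower. At the threshold, Rrp47, an exosome cofactor, lay just inside with a log2 fold change of 1.00 and Mocs1 at 1.01, and CG3570 and CG7920 lay just outside at 0.997 and 0.990. Among falls, nAChRalpha4, a subunit of the nicotinic acetylcholine receptor, lay just inside at -1.002 and CG31751 just outside at -0.997.

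**Figure D1:**
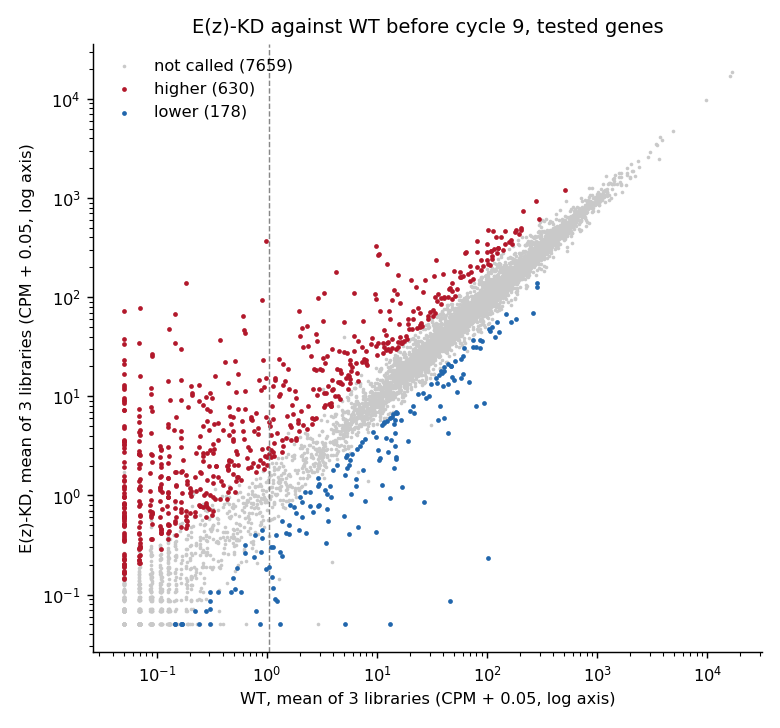
Mean level of each tested gene in WT (x axis) and in E(z)-KD (y axis) before cycle 9, in CPM with a small offset so that 0 can be drawn on the log axes, each point the mean of 3 libraries. The 630 higher genes are red, the 178 lower genes blue and the others grey, and the dashed line marks the maternal minimum of 1 CPM in WT, to the left of which most of the highest folds lie.

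Genes were then split by their level in WT. A gene was called silent when each WT library held at most 3 counts, maternal when its WT mean was at least 1 CPM, and low when it was neither. Of the 9259 silent genes listed, 1242 had enough counts in any group of the series to be tested, and 219 of these were higher in E(z)-KD (17.6%). Of 505 low genes tested, 156 were higher (30.9%) and 25 lower (4.95%), and of the 6720 maternal genes 255 were higher (3.79%) and 149 lower (2.22%). A silent gene can hardly fall, and 4 of the 1242 were called lower (0.322%). A silent gene can also enter the test through the E(z)-KD libraries themselves. Without the E(z)-KD libraries of this age, 1200 of the 1242 passed the filter, and of these 16.2% were higher. They included 194 of the 219 higher genes. That filter kept the E(z)-KD libraries of the later stage, where 107 of the 219 were also higher than in WT. The 16.2% therefore cannot exclude entry through E(z)-KD libraries. Without E(z)-KD replicate 2, 217 silent genes were higher.

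Summed over all 9259 silent genes, WT held 73.8, 64.1 and 61.6 CPM, which the definition keeps low, and E(z)-KD held 1210, 1230 and 1350 CPM. CBP-KD held 655, 611 and 971 CPM. Most of the newly detected RNAs were scarce: the 219 genes had a median of 1.02 CPM in E(z)-KD, 0.24 CPM in CBP-KD and 0.020 CPM in WT. Of the 219, 23 reached 10 CPM in E(z)-KD, 111 reached 1 CPM and 108 stayed below it. In WT 78 of them had 0 counts in every library. Among the 219, 207 were protein coding (94.5%, against 89.4% of the silent genes tested).

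The 12 silent genes with the highest CPM in E(z)-KD lay between 24.0 and 165 CPM in every E(z)-KD library and at or under 0.168 CPM in every WT library. Some of them were also high in CBP-KD and others were not. CG42342, on chromosome 3R, was at 0.12, 0.11 and 0.17 CPM in WT, at 124, 130 and 165 CPM in E(z)-KD and at 57.2, 70.5 and 40.4 CPM in CBP-KD. Its 3 groups did not overlap, and the change from WT was 9.93 ± 0.43 (adjusted p = 2.6e-11). LM408 was at 0.061, 0.057 and 0.17 CPM in WT, at 77.6, 62.7 and 62.0 CPM in E(z)-KD, and higher still in CBP-KD with 100.5, 110.4 and 108 CPM. GstE1, a glutathione S-transferase of the epsilon class, followed the same order with 0.11 to 0.12 CPM in WT, 27.6 to 33.7 CPM in E(z)-KD and 39.5 to 47.4 CPM in CBP-KD.

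GstT4, a theta-class glutathione S-transferase at X:13404749-13409323 (dm6), was close to absent in both other groups. Its levels were 0.061, 0 and 0 CPM in WT, 0.15, 0.15 and 0 CPM in CBP-KD, and 62.1, 75.1 and 95.2 CPM in E(z)-KD. With 1 count over the WT libraries the ratio to WT was 4027, with a 95% counting interval of 722 to 159090. The difference between E(z)-KD and CBP-KD was 9.51 ± 0.59 on the log2 scale (adjusted p = 8.7e-09, edgeR quasi-likelihood test). That comparison called 8.67% of all genes in either direction. It shares the E(z)-KD libraries by which the gene was chosen.

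GABA-B-R3, a subunit of the metabotropic GABA receptor of neurons, was at 0.12, 0.057 and 0.056 CPM in WT and at 45.6, 50.2 and 45.9 CPM in E(z)-KD, with 0.62 to 0.69 CPM in CBP-KD. Ndg, which encodes nidogen, a glycoprotein of basement membranes, was at 0, 0 and 0.056 CPM in WT, at 31.5, 32.0 and 38.8 CPM in E(z)-KD and at 0.23 to 0.52 CPM in CBP-KD. Vdup1, an arrestin-domain protein related to thioredoxin-interacting protein, had no count in WT and stood at 33.2, 34.0 and 45.0 CPM in E(z)-KD, at least 215-fold higher when each WT library is set to 3 counts. In each of these 3 genes the E(z)-KD libraries lay far above both other groups. E(z)-KD exceeded CBP-KD by 6.14 (GABA-B-R3), 6.33 (Ndg) and 6.47 (Vdup1) on the log2 scale. Adjusted p was 6.0e-12, 6.5e-10 and 4.6e-09 (edgeR quasi-likelihood test). This comparison too shares the E(z)-KD libraries by which the genes were chosen.

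CG11453 and CG14567 also had no count in WT. CG11453 was at 64.2, 73.3 and 80.1 CPM in E(z)-KD (at least 417-fold higher) with 3.52 to 6.69 CPM in CBP-KD, and CG14567 at 30.6, 30.8 and 39.0 CPM (at least 192-fold higher) with 1.07 to 2.16 CPM in CBP-KD. CG1648 rose from 0.057 to 0.17 CPM in WT to 29.1 to 44.7 CPM in E(z)-KD, against 5.35 to 6.59 CPM in CBP-KD. For CG30059 and for Dscam4, an immunoglobulin-domain cell adhesion gene, 66.7% and 61.1% of the values were not whole numbers and the counts are uncertain. They stood at 24.0 to 28.1 and 24.2 to 26.8 CPM in E(z)-KD. Per kilobase of transcript the order of levels differed, and GstT4 at 63.5 and CG14567 at 46.1 CPM per kilobase lay above CG42342 at 19.6.

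**Figure D2:**
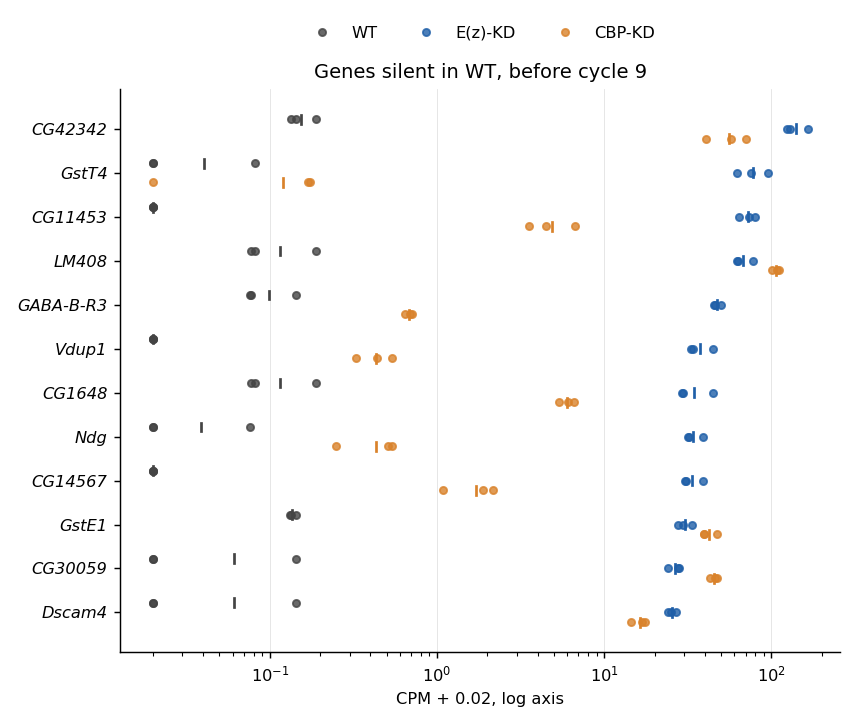
Level of the 12 silent genes with the highest CPM in E(z)-KD, before cycle 9, in CPM with a small offset on a log axis. Each dot is 1 library of WT (grey), E(z)-KD (blue) or CBP-KD (orange) and each vertical tick a group mean; no WT library exceeds 0.168 CPM, no E(z)-KD library lies below 24.0 CPM, and CBP-KD ranges from 0 to 110 CPM.

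Patterning genes are the best known targets of Polycomb. Of 8 Hox genes, 6 were tested, 5 of them silent in WT, and 1 was called (16.7%, beside 17.6% of all silent genes tested): Abd-B, the gene of the most posterior segments, had 0 counts in WT and 0.11, 0.54 and 0.28 CPM in E(z)-KD (at least 1.78-fold higher), with 0.31, 0.074 and 0.69 CPM in CBP-KD. Ubx and Scr had 0 counts in all E(z)-KD libraries, and Antp was at 0, 0.067 and 0.055 CPM. None of the 12 gap and terminal genes, 11 pair-rule genes, 9 segment polarity genes or 21 signalling ligands tested was called higher or lower. Of these, 10, 9, 6 and 12 were silent in WT before cycle 9 and entered the test through other groups. Of the 12 gap and terminal genes 11 were under 1 CPM in all 6 libraries. The median log2 changes of these lists, in the same order, were 1.71, 0.02, 0.00 and -0.04. The size of a change is not reliable for genes without counts in a group.

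Some regulators of later development appeared at low levels. The ventral neuroblast gene vnd was at 0, 0 and 0.056 CPM in WT and at 3.22, 4.64 and 4.98 CPM in E(z)-KD, a ratio of 221 with a 95% counting interval of 39.2 to 8766, and at 0.59 to 1.25 CPM in CBP-KD. danr, a regulator of antenna and eye development, was at 0.12, 0 and 0 CPM in WT and at 2.20, 2.35 and 2.93 CPM in E(z)-KD. The trunk selector tsh rose from 1.35, 0.91 and 1.57 CPM to 10.5, 10.9 and 10.5 CPM, with 1.68 to 2.16 CPM in CBP-KD. In all 3 genes the E(z)-KD libraries stood above both other groups. tsh changed by 3.05 ± 0.29 on the log2 scale (adjusted p = 3.2e-07).

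The dorsoventral and mesoderm list had 3 of 23 tested members higher, vnd, the T-box gene Doc3, at 0.51, 1.34 and 1.44 CPM in E(z)-KD, and htl, the fibroblast growth factor receptor of the mesoderm, at 0.79, 1.48 and 0.89 CPM in E(z)-KD. The selector list of eye, wing and leg had 4 of 20 higher (danr, bab2, tsh and tio) and ey lower. ey, the eye selector, was at 0.86, 0.34 and 0.56 CPM in WT and 0.23, 0.13 and 0.28 CPM in E(z)-KD, and its call was lost when any of 4 libraries was left out (adjusted p = 0.034 with all). Of 19 neural regulators Lim1 was higher and dpn was lower. The members of these lists are mostly silent in WT, 18 of 23, 14 of 20 and 16 of 19, and the shares called stand against 17.6% of all silent genes tested. The median log2 changes of the 3 lists were 0.02, 0.00 and 1.22. Genes with no counts in a group were then set to their bound, or left out where they had none. That left 13, 9 and 10 genes with medians of 0.60, 1.39 and 0.90. Genes without counts in a group and scarce in the other were dropped, so these medians do not describe the whole lists.

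Single genes of differentiated cells also appeared. In the neuronal, muscle and cuticle lists 6 of 19, 5 of 16 and 5 of 21 members were tested, and the others had too few counts. Of the 9 fat body genes 5 were tested. sls, a titin-like protein of the sarcomere, was at 0, 0.057 and 0 CPM in WT, at 2.37, 2.96 and 2.38 CPM in E(z)-KD and at 1.87 to 2.45 CPM in CBP-KD. kkv, a chitin synthase, was at 0 to 0.12 CPM in WT and at 1.72 to 2.35 CPM in E(z)-KD. Lsp1gamma, a larval serum protein of the fat body, was at 0.85, 0.47 and 0.44 CPM in E(z)-KD, and 6 of the 9 fat body genes were under 1 CPM in all 6 libraries. Rpt6R, a copy of a proteasome ATPase gene used in testis, rose from 0 to 0.057 CPM to 9.66, 9.81 and 12.1 CPM, while 22 of the 25 testis and sperm genes were under 1 CPM throughout.

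Glutathione S-transferases, enzymes of detoxification, had the largest share of higher genes among lists with at least 10 tested members. Of 24 glutathione S-transferases tested 7 were higher (29.2%) and 1 lower (GstO3). Of 36 cytochrome P450 genes 7 were higher (19.4%) and 2 lower (Cyp6a23 and Cyp6a17). Over all tested genes the shares were 7.44% and 2.1%. Silent in WT were 4 of the 24 and 16 of the 36, and 17.6% of all silent genes tested were higher. The median log2 change over the 24 was 0.17 and over the 36 was 0.01, beside 0.00 over all tested genes. Genes without counts in a group were then set to their bound, or left out where they had none. The medians were then 0.29 over the remaining 22 glutathione S-transferases and 0.19 over the remaining 25 cytochrome P450 genes. GstD3 was at 11.2, 13.1 and 12.6 CPM in WT, at 204, 203 and 245 CPM in E(z)-KD and at 155, 168 and 140 CPM in CBP-KD. GstT3 was at 16.9, 13.1 and 16 CPM in WT, at 154, 162 and 181 CPM in E(z)-KD and at 153, 169 and 138 CPM in CBP-KD, and the knockdowns overlapped. Cyp6a13 was instead high in E(z)-KD and not in CBP-KD, with 22.5, 23.4 and 22.1 CPM against 0.31, 0.30 and 0.21 CPM, and with 0.31, 0.40 and 0.67 CPM in WT. Cyp6a20 rose from 2.33, 1.36 and 2.07 CPM to 69.4, 68.9 and 78.2 CPM, with 18.7 to 22.2 CPM in CBP-KD. GstD1, an abundant member, was not called, at 673, 681 and 709 CPM in WT and 502, 486 and 479 CPM in E(z)-KD.

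**Figure D3:**
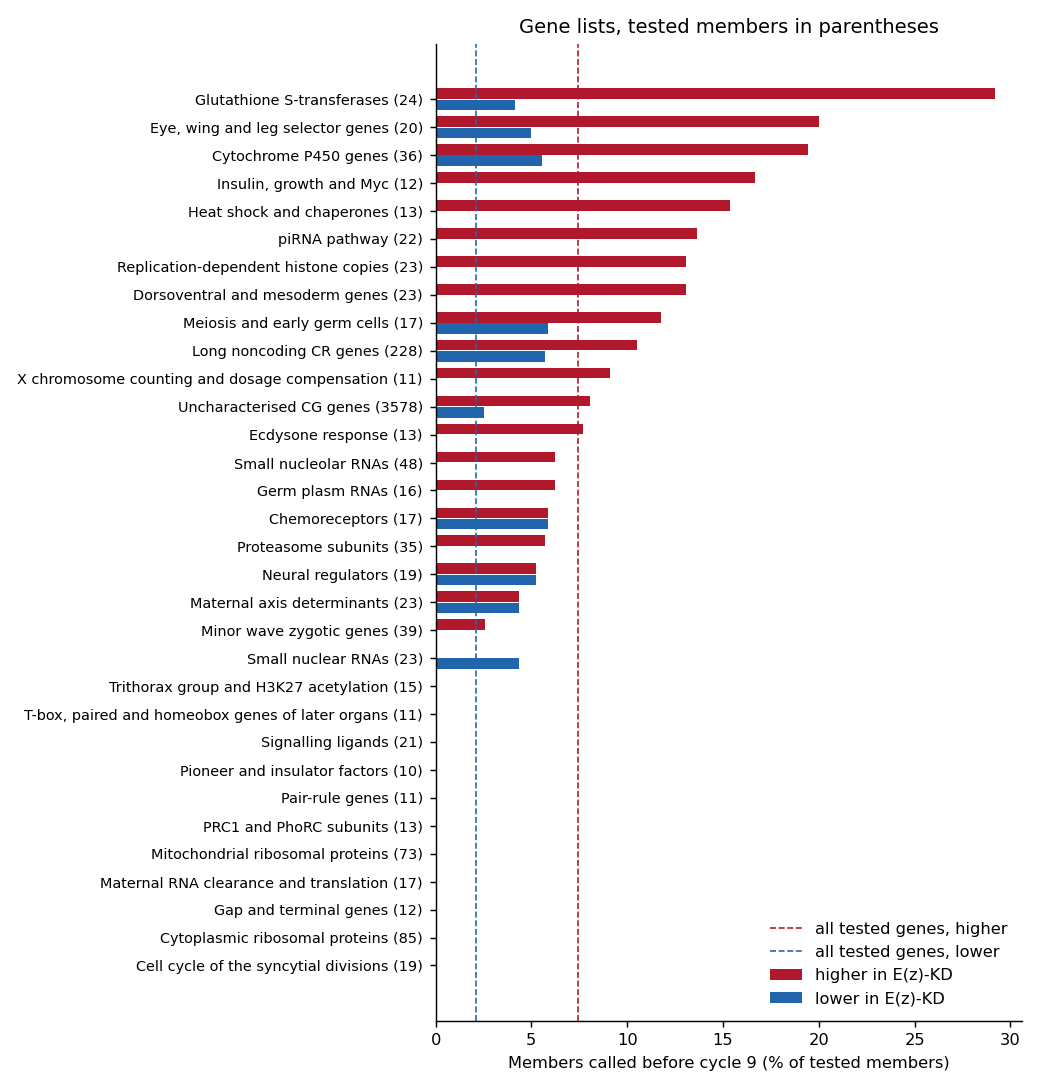
Share of the tested members of each gene list that were higher (red) or lower (blue) in E(z)-KD before cycle 9, for lists with at least 10 tested members, whose number is in parentheses. Dashed lines mark 7.44% and 2.1%, the shares over all tested genes; the glutathione S-transferases reach 29.2%, and several patterning, cell cycle and ribosomal lists have no called member.

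Among maternal RNAs, 255 were gained and 149 lost, and the shares fell with abundance: of 5952 genes with at least 10 CPM in WT 126 were higher and 86 lower, and of 2557 with at least 100 CPM 30 were higher and 13 lower. The median of the gained genes was 9.79 CPM in WT, 36.4 CPM in E(z)-KD and 21.1 CPM in CBP-KD. The median of the lost genes was 13 CPM in WT, 3.43 CPM in E(z)-KD and 4.88 CPM in CBP-KD. Since both knockdowns were compared with the same WT libraries, the levels are given side by side and the overlap of the calls is not given. In the direct comparison with CBP-KD, 90 of the 255 gained genes were higher in E(z)-KD, 1 was lower and 164 were not called. Of the 149 lost genes 32 were lower, 9 higher and 108 not called. That comparison called 8.67% of all tested genes in either direction, and it shares the E(z)-KD libraries by which the genes were chosen.

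The 10 largest gains among genes with at least 10 CPM in WT ran from 2.76 to 4.73 on the log2 scale. CG9650, which encodes a zinc-finger protein, was at 10.3, 10.7 and 9.89 CPM in WT, at 279, 270 and 274 CPM in E(z)-KD and at 15.7, 16.4 and 14.9 CPM in CBP-KD. Its E(z)-KD libraries stood apart from both groups, and it changed by 4.73 ± 0.15 (adjusted p = 9.3e-13) from WT and by 4.13 from CBP-KD (adjusted p = 8.2e-12). CG7322 was at 9.66 to 10.7 CPM in WT, 247, 258 and 289 CPM in E(z)-KD and 123 to 161 CPM in CBP-KD. Cyp6d4 was at 36.3, 31.5 and 35.4 CPM in WT, at 235, 228 and 256 CPM in E(z)-KD and at 68.5 to 92.8 CPM in CBP-KD.

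The cell adhesion gene uzip, which acts in axon guidance, rose from 14.5, 11.8 and 14.6 CPM to 90.4, 87.0 and 100.3 CPM, with 16.4 to 17.5 CPM in CBP-KD. btsz, a synaptotagmin-like protein that organises actin at the apical side of embryonic epithelia, rose from 11, 7.44 and 13.1 CPM to 75.2, 72.7 and 68.2 CPM, with 16.3 to 19.1 CPM in CBP-KD. In uzip and btsz, as in CG9650, CBP-KD lay close to WT. CG1265, l(3)72Dp and Ady43A were the remaining genes of the 10, and their E(z)-KD values of 105 to 169 CPM lay near the 85.2 to 164 CPM of CBP-KD.

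In CPM, 4 of the 5 largest rises were of RNAs already abundant in WT. CG4991 rose from 542, 481 and 507 CPM to 1145, 1167 and 1306 CPM, with 973 to 1119 CPM in CBP-KD. shtd, the largest subunit of the anaphase-promoting complex, rose from 296, 264 and 271 CPM to 878, 934 and 1006 CPM. Unc-76, an adaptor of the kinesin motor, rose from 96.9 to 114 CPM to 451, 458 and 503 CPM, and CG3356 from 207 to 226 CPM to 712, 726 and 769 CPM. CG14131 stood just under the maternal minimum, at 1.35, 0.68 and 0.78 CPM in WT, and reached 356, 358 and 396 CPM in E(z)-KD and 241 to 304 CPM in CBP-KD. In all of these both knockdowns lay above WT.

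Several regulators were gained from a low level in WT. chinmo, a zinc-finger gene of neural temporal identity, rose from 0.92, 0.97 and 0.89 CPM to 11.8, 18.4 and 15.7 CPM. Its log2 change was 4.03 ± 0.29 (adjusted p = 1.4e-08, edgeR quasi-likelihood test), and it was at 1.46 to 1.99 CPM in CBP-KD. Hr4, a nuclear receptor of the ecdysone response, rose from 5.95, 5.40 and 5.59 CPM to 25.4, 22.3 and 22.4 CPM, with 5.13 to 8.10 CPM in CBP-KD. ImpL2, a secreted antagonist of insulin signalling, rose from 0.25, 0.11 and 0.34 CPM to 10.4, 8.60 and 10.3 CPM, with 0.38 to 0.49 CPM in CBP-KD. In these 3 genes CBP-KD lay far below E(z)-KD.

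Of 22 piRNA pathway genes, which silence transposons in the germline, squ, mael and rhi were higher (13.6%, beside 7.44% of all tested genes and 3.79% of maternal genes) and none was lower, and squ is uncertain because 94.4% of its values were not whole. mael, which acts in transposon silencing, rose from 96.0, 99.6 and 104 CPM to 277, 286 and 296 CPM, with 227 to 253 CPM in CBP-KD. rhi, which marks piRNA source loci, rose from 21.0, 17.2 and 19.9 CPM to 47.1, 44.2 and 50.4 CPM, with 28.2 to 29.1 CPM in CBP-KD. Of 17 meiosis and early germ cell genes ord and bgcn were higher (11.8%) and c(2)M was lower (5.88%), beside 7.44% and 2.1% of all tested genes. ord, needed for cohesion of meiotic chromosomes, rose from 0.31, 0.23 and 0.28 CPM to 1.47, 3.70 and 2.66 CPM, and c(2)M, of the synaptonemal complex, fell from 37.5, 36.8 and 39.3 CPM to 18.9, 17.8 and 17.5 CPM. mof, the histone H4 acetyltransferase of dosage compensation, rose from 112, 115.3 and 113 CPM to 436, 453 and 497 CPM and was at 318 to 348 CPM in CBP-KD.

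The basic machinery of the maternal supply was not called. None of 85 cytoplasmic and 73 mitochondrial ribosomal protein genes, 17 genes of maternal RNA clearance and translation and 19 genes of the syncytial cell cycle passed. The medians of these lists were -0.07, 0.00, -0.09 and -0.07 on the log2 scale. Of 23 maternal axis determinants, gd and ndl, proteases of the cascade that sets the dorsoventral axis, were called, gd from 15.5, 17.5 and 16.6 to 34.5, 31.9 and 36.4 CPM and ndl from 3.01, 2.56 and 3.24 to 0.96, 1.41 and 1.44 CPM. Elba2, a subunit of an insulator complex, was the only 1 of 39 minor wave genes called. It rose from 118, 130 and 130 CPM to 293, 311 and 326 CPM, with 208 to 250 CPM in CBP-KD. The median log2 change of the 39 was 1.30, and 30 of them were under 1 CPM in all 6 libraries.

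The losses were fewer, and apart from E(z) the clearest were of genes with different roles. Nup75, a subunit of the nuclear pore, was at 94.5, 91.7 and 93.3 CPM in WT, at 8.14, 8.54 and 8.58 CPM in E(z)-KD and at 102, 96.3 and 104 CPM in CBP-KD. vari, a scaffold of septate junctions, was at 48.8, 39.4 and 43.3 CPM in WT, at 5.42, 3.50 and 3.65 CPM in E(z)-KD and at 97.1 to 108 CPM in CBP-KD. Both were low only in E(z)-KD. Nup75 fell by 3.47 ± 0.08 on the log2 scale (adjusted p = 6.4e-14) and vari by 3.38 ± 0.16 (adjusted p = 1.1e-10).

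Other losses were also seen in CBP-KD. FBgn0010549, a gene for a transporter of the ABC family, was at 32.0, 21.8 and 25.9 CPM in WT, at 0.85, 1.14 and 0.44 CPM in E(z)-KD and at 0.97 to 2.08 CPM in CBP-KD. Irk1, an inwardly rectifying potassium channel, was at 80.9, 78.5 and 77.0 CPM in WT, at 9.77, 8.94 and 4.93 CPM in E(z)-KD and at 5.50 to 7.49 CPM in CBP-KD. Idgf3, a secreted growth factor of the chitinase family, was at 11.8 to 15.1 CPM in WT, at 0.61 to 1.21 CPM in E(z)-KD and at 0.076 to 0.35 CPM in CBP-KD. CG13101, CG4733 and Reg-5 were likewise lower in both knockdowns than in WT. The small nuclear RNA gene snRNA:U2:34ABa, at 49.7, 42.5 and 46.7 CPM in WT and at 0, 0 and 0.11 CPM in E(z)-KD, has near-identical copies, and 77.8% of its values were not whole, and its loss is uncertain.

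The largest falls in CPM were of CG3902 (243, 258 and 277 CPM in WT, 75.4, 67.8 and 64.0 CPM in E(z)-KD), CG5210, CG1640, Sod3 and CG2875. Sod3, an extracellular superoxide dismutase, fell from 179, 183 and 184 CPM to 63.2, 61.1 and 57.6 CPM and was at 88.3 to 94 CPM in CBP-KD. The counts of CG2875 were not whole in 77.8% of libraries. CG1640 lay close to the fold threshold, with a log2 change of -1.02.

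**Figure D4:**
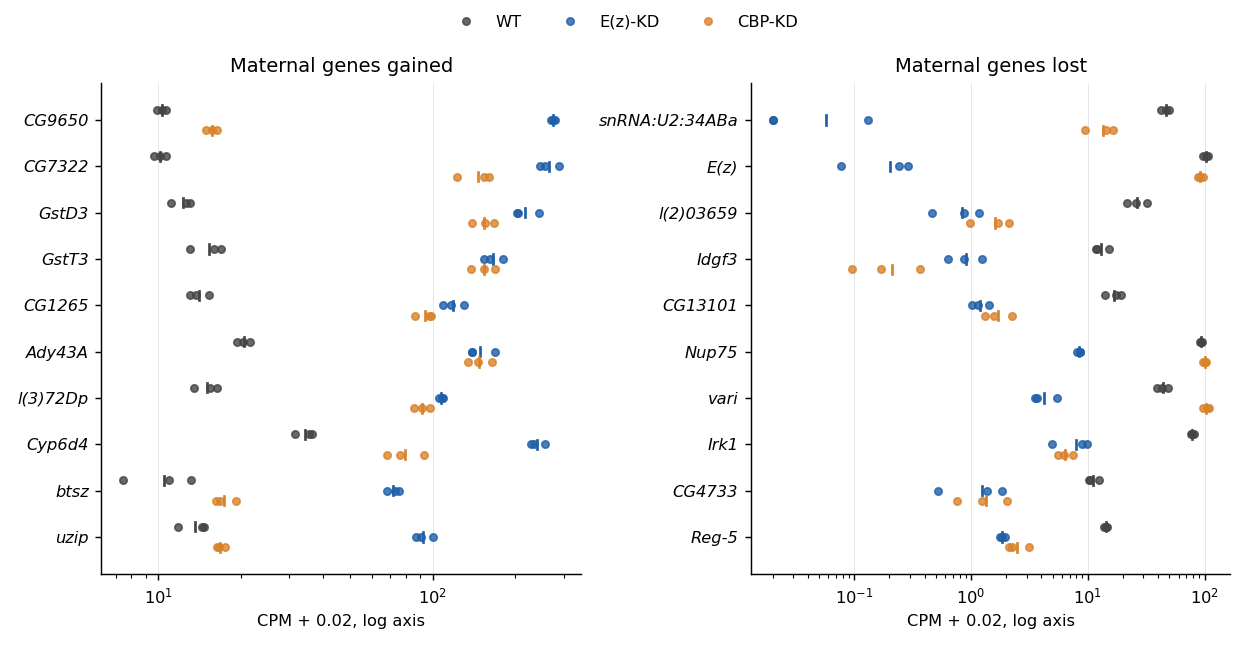
The 10 maternal genes with the largest gain (left) and the 10 with the largest loss (right) in E(z)-KD before cycle 9, among genes with at least 10 CPM in WT, in CPM with a small offset on log axes. Dots are single libraries of WT (grey), E(z)-KD (blue) and CBP-KD (orange) and ticks are group means; CBP-KD lies beside WT for CG9650, btsz, uzip, E(z), Nup75 and vari or on the far side of it, and nearer to E(z)-KD for most others.

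Of the 5 visible markers used in fly strains and vectors, 4 were tested and y and w were called higher. sc was not called (adjusted p = 0.22), nor was ry (adjusted p = 0.50), which had 0 counts in E(z)-KD. y, the body colour gene on the X chromosome, had 0 counts in WT and was at 0.51, 1.01 and 0.22 CPM in E(z)-KD and 0.23 to 0.83 CPM in CBP-KD, and at cycle 14 it was at 1.82 CPM in WT and 149 CPM in E(z)-KD. w, the eye colour gene used as a transgene marker, was at 0.67, 0.97 and 0.45 CPM in WT and 2.20, 1.68 and 2.38 CPM in E(z)-KD, with 1.07 to 1.56 CPM in CBP-KD. The vermilion gene v, which was not tested, had no counts in WT or CBP-KD and was at 0.40, 0.54 and 0.33 CPM in E(z)-KD. The part of the genetic background in the gains and losses was not tested, since it cannot be told apart from the knockdown.

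The positions of called genes are given as a description. On the X chromosome 153 of 1450 tested genes were higher (10.6%), and on the other chromosomes the share lay between 5.96% and 7.63%. Of the silent genes on the X 41 of 159 were higher (25.8%), and of the maternal genes there 70 of 1189 (5.89%). In CBP-KD 8.0% of X-linked genes were higher than in WT, against 7.51% of all genes. Of the 623 higher genes with a position, 158 had a neighbour among the tested genes that was also higher (25.4%), against 14.2% of all 8350 placed genes, and for lower genes the share was 12.4% against 4.22%. Adjacent and overlapping genes can share reads, since the sources used here do not say whether strand was used in counting.

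Among tested genes, 10 runs of at least 3 neighbours were all higher, and 7 of these were on the X. The run with GstT4 (X:13396899-13413074) also held CG1673 and CG1998, which were chosen after their values were seen. CG1673 was at 10.7, 7.95 and 10.5 CPM in WT, at 330, 336 and 314 CPM in E(z)-KD and at 22.2 to 24.9 CPM in CBP-KD, and CG1998 at 0.31 to 0.80 CPM in WT and 3.16, 3.83 and 3.87 CPM in E(z)-KD. The run at X:5831898-5876853 held mof, GAA1 and the noncoding CR43264, and the run at 3L:1140429-1204795 held bab2, CG13912 and CG9119. Another run, at X:12029754-12335214, held Cyp311a1, Ten-a and the overlapping CR43960 and Muc11A, and as 72.2% of the values of Ten-a were not whole its 175 to 181 CPM in E(z)-KD, against 3.99 to 4.58 CPM in WT, are uncertain.

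The same question was put to cycle 14, in other libraries of E(z)-KD and WT. There 956 of the 8467 genes were higher in E(z)-KD (11.3%) and 1099 were lower (13%). Of the 630 genes higher before cycle 9, 356 were also higher at cycle 14 (56.5%) and 60 were lower (9.52%). Of the 178 lower genes, 97 were also lower at cycle 14 (54.5%) and 4 were higher. The share was 64.3% for the 255 maternal gains and 48.9% for the 219 silent genes that appeared. Silent genes could enter the test through the E(z)-KD libraries of cycle 14, so the 48.9% is in part set by the filter. Of 248 tested genes that were silent in WT at cycle 14, 53.2% were higher in E(z)-KD at that stage. Without E(z)-KD replicate 2, 351 genes were higher at both stages. The stages differed in the source of RNA, as maternal RNA is cleared and the zygotic genome is active at cycle 14.

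Some of the RNAs that appeared before cycle 9 were also present at cycle 14, where WT had little or none. GABA-B-R3 was at 14.5 CPM in E(z)-KD at cycle 14 and at 0 CPM in WT, CG14567 at 23.4 and 0 CPM, CG11453 at 14.1 and 0 CPM, and Ndg at 31.7 and 0.28 CPM (group means). Of the 344 silent genes that WT switched on to at least 5 CPM by cycle 14, 29 were higher before cycle 9 (8.43%), and of the 898 that it did not, 190 (21.2%). Genes that WT did not switch on entered the test in part through the knockdown libraries, where they had to be high, so the shares are not compared.

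The E(z)-KD effect turned around between the stages for some regulators. Many members of their lists were lower in E(z)-KD at cycle 14, whether or not they were higher before. The numbers were 12 of 23 dorsoventral and mesoderm genes, 14 of 20 selector genes and 11 of 19 neural regulators, against 13% of all tested genes. danr, Doc3, htl and Lim1 were higher in E(z)-KD before cycle 9 and lower at cycle 14, when WT expressed them at 67.4, 32.1, 72.9 and 11.3 CPM and E(z)-KD at 15.9, 13, 11.1 and 2.23 CPM. tsh went from 3.05 to -1.04 and btsz from 2.77 to -1.35 on the log2 scale. The difference between the stages was called for 1245 of the 8467 genes (14.7%). vnd was at 100.1 CPM in WT and 50.7 CPM in E(z)-KD at cycle 14, a log2 change of -0.98 that missed the fold threshold.

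**Figure D5:**
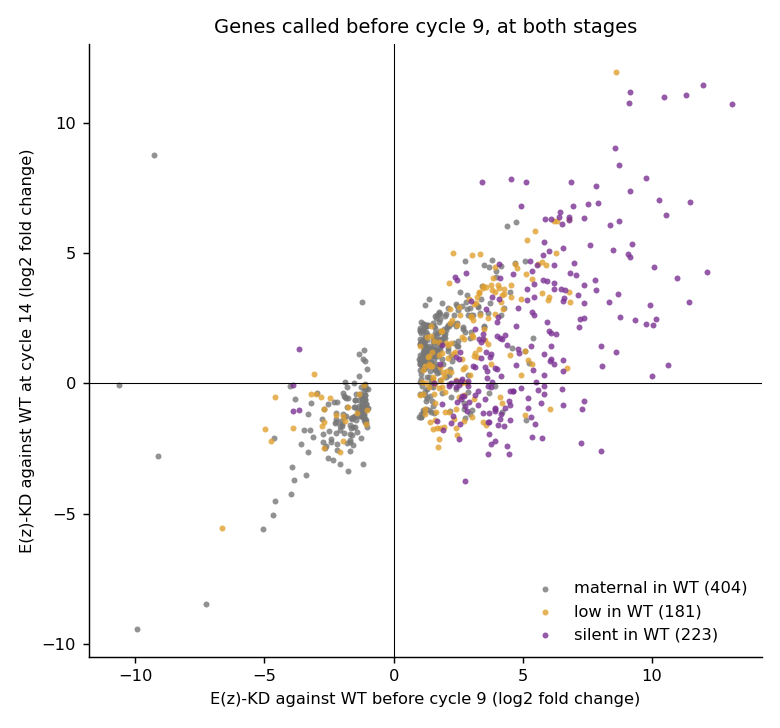
Log2 fold change of E(z)-KD against WT before cycle 9 (x axis) and at cycle 14 (y axis) for the 808 genes called before cycle 9, coloured by their level in WT before cycle 9. Of these genes 356 were called higher and 97 lower at both stages, and 60 were called higher before cycle 9 and lower at cycle 14; fitted values of genes with no counts in a group depend on the prior count.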

How the data were processed

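RNA was measured in 18 libraries of whole embryos, of which 6 enter the main comparison. The authors aligned reads to dm6 with STAR, keeping reads with several positions, and deposited expected counts (estimated counts) per gene without normalization. The annotation, counting step and strand setting are not given in the sources used here, and spike-ins were not used here. 2.9% of the values lay more than 0.01 from a whole number and were rounded, although the planned test assumed counts. The genes, lists and tests were chosen with earlier results of these data known.

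Counts were tested with edgeR 4.0.16 (quasi-likelihood, TMM, filterByExpr by group) in R 4.3.3 on all 18 libraries, with 1 mean for each of 6 groups, 12 residual degrees of freedom and a common biological coefficient of variation of 0.115. Genes were called at a Benjamini-Hochberg adjusted p below 0.05 with a log2 fold change of 1 or more in size. SE is the fold change over the root of F. CPM values are TMM-normalized. Single values were compared with exact permutation tests (two-sided, smallest p 0.1). Intervals are exact 95% intervals and, like the floor of 3 counts per library, cover counting error only. Replicates differed by more than sampling noise (chi-square per degree of freedom 3.75 to 13.3). Of 16680 names 16433 were matched to Ensembl release 115 genes, and 247 were not used for positions. Scripts were tested on simulated data.

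Named genes are E(z), the PRC2 genes, the 12 silent genes highest in E(z)-KD, the 10 largest maternal gains and losses at 10 CPM or more with libraries that do not overlap, the 5 largest rises and falls in CPM, up to 5 called members and the best known members of each list, and genes at the threshold. The 54 lists held 6 with no tested member. Alternatives were DESeq2 1.42.0, no TMM, other filters, only the 6 libraries, a replicate block, each library left out, no fold threshold and a test against the fold.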

Additional observations from a re-analysis of the deposited data

Results flagged for a closer look

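The named genes below were called in opposite directions at the 2 stages, and the difference of the E(z)-KD effect, cycle 14 minus before cycle 9, was itself called (edgeR quasi-likelihood test, adjusted over 8467 genes, of which 14.7% were called). The differences were -4.12 for btsz (adjusted p = 2.4e-08) and -4.09 for tsh (adjusted p = 3.7e-07), both of which had counts in all 4 groups. For danr the difference was -7.82 (adjusted p = 3.2e-08), for htl -7.20 (adjusted p = 2.0e-05), for Doc3 -6.61 (adjusted p = 1.5e-06), for Lim1 -6.13 (adjusted p = 7.6e-05) and for Lsp1gamma -5.17 (adjusted p = 6.6e-05). These 5 genes had at most 3 counts in each WT library before cycle 9, so the sizes of their differences depend on the prior count, and only the direction can be read. Groups of 3 libraries were not tested for outliers.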

How the results depend on the processing

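With each of the 6 libraries left out in turn, the number of higher genes ran from 586 to 619 and of lower genes from 159 to 184. Silent genes that were higher ran from 198 to 217, maternal genes higher from 240 to 262 and maternal genes lower from 141 to 163. At least 568 of the 630 higher genes, 151 of the 178 lower genes and 185 of the 219 silent genes were among the calls each time. DESeq2, no TMM and no filter kept all counts within 1.5 times. Requiring 10 counts in every library of both groups left 261 higher genes and can give no count of silent genes. Fitting only the 6 libraries, which tests fewer genes, left 125 silent genes that were higher. In the test against a log2 fold change of 1, 89 genes were lower, 168 maternal genes higher and 83 maternal genes lower. With no fold threshold 1569 genes were higher, 1310 lower, 1193 maternal genes higher and 1281 lower. Silent genes that were higher numbered 78 when silent meant 0 counts and 375 when it meant a mean under 1 CPM. With maternal set at 10 CPM, 126 were higher and 86 lower. The alternatives for genes higher at both stages, 356 in the main test, were chosen after seeing the data: 347 to 357 with each library left out, 168 with 10 counts in every library and 1006 with no fold threshold.

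The replicate numbers were not taken to pair the samples in the main test, and correlations of same-numbered libraries were weak, at 0.17, 0.04 and 0.15. With the number as a replicate block in the 6 libraries, 530 genes were higher, 160 lower and 125 silent genes higher, and without the block these 6 libraries gave 524, 155 and 125. Each E(z)-KD library correlated best with the WT library of its own number.

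For 118 named genes, 1339 alternative values gave no reversal, and the adjusted p moved across 0.05 in 33 values that lost it and 9 that gained it. Low counts limit 108 of the 219 silent genes, which stayed under 1 CPM.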

Other observations

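Noncoding genes with CR names had 24 of 228 tested members higher (10.5%) and 13 lower (5.7%), beside 7.44% and 2.1% of all tested genes. Of the 228, 101 were silent in WT, and 17.6% of all silent genes tested were higher. CR45215 had no counts in WT and was at 6.33, 6.59 and 9.02 CPM in E(z)-KD, with 0.31 to 0.62 CPM in CBP-KD. The lncRNA CR43730 was at 0.98, 0.57 and 0.67 CPM in WT and at 0, 0 and 0.055 CPM in E(z)-KD. Of 17 chemoreceptors tested 1 was higher and 1 lower (5.88% each). Gr61a was the higher one, at 5.59, 4.44 and 4.93 CPM in E(z)-KD against 0.31, 0.11 and 0.22 CPM in WT, with 2.22 to 2.50 CPM in CBP-KD. PPO3, a prophenoloxidase of blood cells, was at 3.74, 3.98 and 3.58 CPM in WT, 7.01, 8.94 and 8.03 CPM in E(z)-KD and 0.35 to 0.61 CPM in CBP-KD, so the knockdowns lay on opposite sides of WT. Dhc98D, a dynein heavy chain gene, did likewise, with 0.61, 2.16 and 0.95 CPM in WT, 7.17, 14.6 and 8.19 CPM in E(z)-KD and 0.076 to 0.35 CPM in CBP-KD. CG32857 was at 13.7, 25.3 and 0 CPM in WT, at 0 CPM in all E(z)-KD libraries and at 22.7 to 39.8 CPM in CBP-KD, and 27.8% of its values were not whole, so its loss is uncertain.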
